A study of Homo sapiens with 59 samples.

Results

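The 8 h time point compared human macrophage-like cells that had received rosiglitazone (RSG), a synthetic agonist of the nuclear receptor PPARG, with cells that had received the vehicle DMSO. Its members are the 12 arrays whose sample titles give RSG or DMSO and 8 h, 6 for each treatment, out of 59 arrays in the series. All cells were THP-1, a line established from a human monocytic leukaemia, and all groups shared the same pretreatment, 40 h with 10 ng/ml of the phorbol ester PMA, followed by 2 h without PMA. The RSG group then received 1 µM RSG for 8 h and the DMSO group the vehicle for 8 h. RNA was hybridised to Illumina bead arrays with 1 colour, and 11515 genes were tested. Nothing in the sources used here says whether the 6 replicates of a group came from separate cultures, so p-values measure the spread between these arrays, which may be technical.

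PPARG binds DNA as a heterodimer with a retinoid X receptor (RXR), at repeated AGGTCA-like elements set 1 base apart, and agonist binding exchanges corepressors for coactivators. It is best known as the regulator of fat cell formation, and in macrophages it is known for control of fatty acid uptake, storage and oxidation and for limits on inflammatory genes. PU.1, encoded by SPI1, is the transcription factor that defines the myeloid lineage and occupies much of the open chromatin in macrophages.

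Values are given as normalised log2 signals of 1 probe per gene, so that a difference of 1 is a 2-fold change, and differences are RSG minus DMSO. The mean raw signal of the 12 arrays ran from 402 to 1028, and 12277 to 13937 probes were detected on each. Macrophage markers were present on all 12 arrays, with CSF1R, the receptor for colony-stimulating factor 1, between 12.74 and 14.26. Of the defining markers of lymphocytes, granulocytes and adipocytes, CD3E, MPO, CEACAM8 and PLIN1 were detected on none of the 12 arrays, while ELANE, ADIPOQ and LEP were detected on all 12. On the 11 arrays other than RSG replicate 1, CD3D was detected on 1, MS4A1 on 5 and CIDEC on 9. In replicate 1 MS4A1 and CIDEC were detected and CD3D was not. In such bulk RNA, fewer cells of a type and less RNA per cell cannot be told apart.

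RSG replicate 1 stood apart from every other array of 8 h. Its correlation with the other 11 arrays was 0.886 to 0.899, whereas those 11 correlated with each other at 0.981 to 0.996. It was closer to 4 arrays of 12 h that stood apart from their own groups, 2 DMSO and 2 RSG, with correlations of 0.967 to 0.977. Relative to the median of the other 5 RSG arrays, 1067 of the 11515 genes (9.27%) were over 2-fold higher in it and 1510 (13.1%) over 2-fold lower.

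The genes that stood highest in replicate 1 were mostly chemokines, cytokines and dendritic cell markers. LAMP3, a lysosomal protein of mature dendritic cells, had a signal of 13.57 in it against 4.35 to 4.62 on the other 11 arrays, where it was never detected. The chemokine receptor CCR7, which guides dendritic cells to lymph nodes, had 12.91 in it and was likewise undetected elsewhere. The rest of the 10 highest were the chemokines CCL3L1 (whose probe may not tell it from CCL3), CXCL10, CCL1, CCL8 and CCL3, the tryptophan-degrading enzyme IDO1, TNF and the transcription factor HES4, which lay 7.09 to 8.87 above the median of the other RSG arrays.

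The lowest genes of replicate 1 included several that belong to lipid metabolism or rose elsewhere with RSG. PDK4 and KLF4 were not detected in it, with signals of 4.46 and 5.33 against 8.37 to 9.13 and 9.73 to 10.51 on the other RSG arrays. Lipoprotein lipase (LPL) had 8.78 against 12.42 to 12.86. PHACTR3, PRAM1, TBC1D10C, ZNF395, NCALD, MAN1C1 and LOXL4 made up the rest of the 10 lowest, and PHACTR3, PRAM1, TBC1D10C and ZNF395 were not detected in it either. PPARG itself had a signal of 9.51 in replicate 1 and 11.07 to 11.26 on the other 11 arrays, and 4 of 7 macrophage markers (CD14, CSF1R, ITGAM and MSR1) were below all other arrays and 3 (CD68, LYZ and SPI1) above them.

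Over all 11515 genes, 28.9% were higher in replicate 1 than on any of the other 11 arrays and 35.0% lower. All but 1 of 22 tested genes for NF-kB and inflammatory cytokines were higher in replicate 1 than on any of the other 11 arrays, and the mean signal of the list was 11.10 against 7.43 to 7.64. For interferon-stimulated genes it was 37 of 38 genes, with means of 11.98 against 7.92 to 8.42, and for mature dendritic cell markers 13 of 14 genes, with 11.10 against 6.47 to 6.71. In the opposite direction, 36 of 39 genes of mitosis and 25 of 35 of fatty acid oxidation were lower in replicate 1 than on any other array. What made this array differ was not tested.

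**Figure D1:**
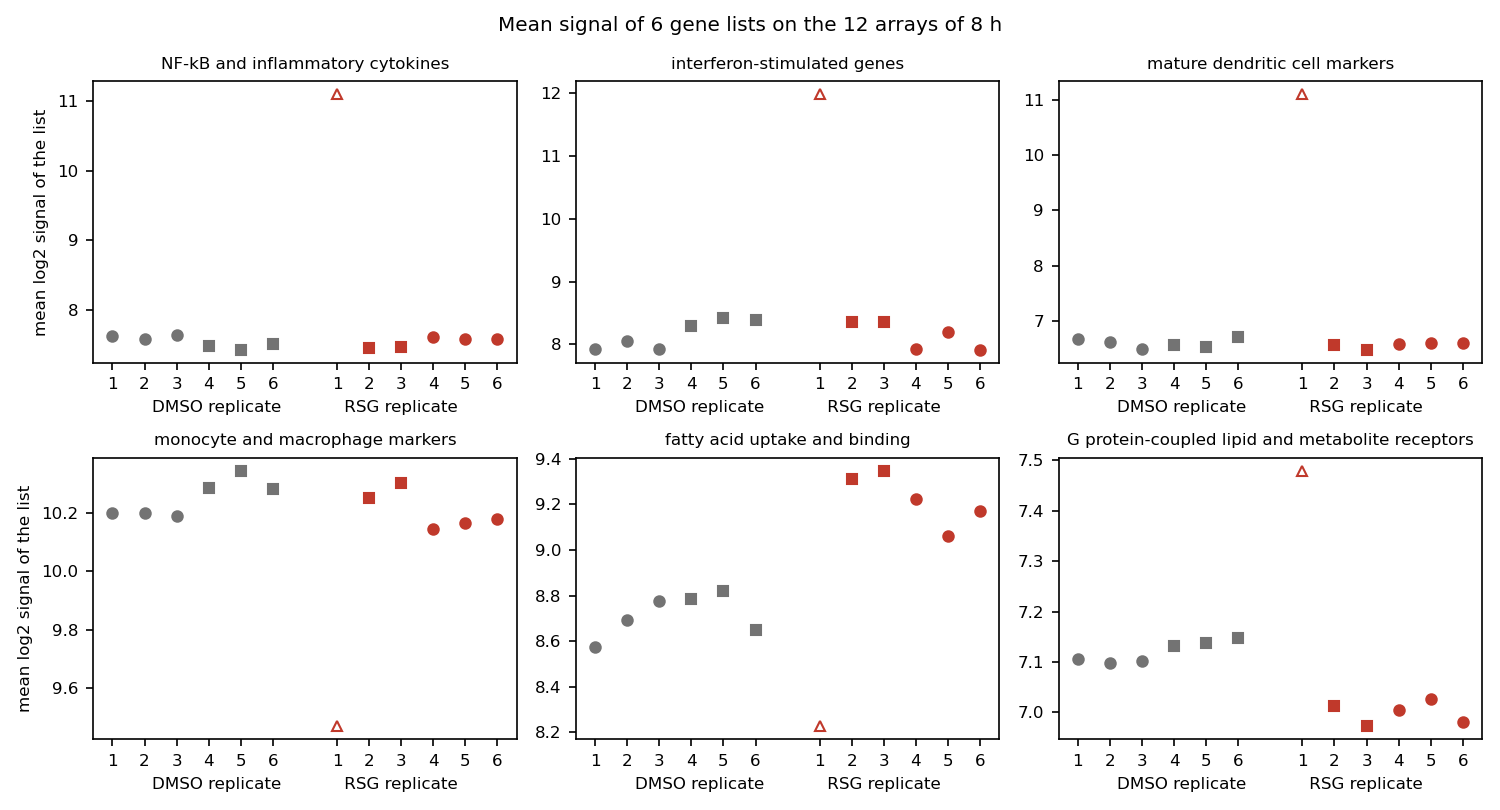
Mean normalised log2 signal of 6 gene lists (vertical axes, each with its own range) on the 12 arrays of 8 h, DMSO in grey and RSG in red, circles and squares for the first and second set of arrays and an open triangle for RSG replicate 1. Replicate 1 lies at 11.10 for the NF-kB list, where the other 11 arrays lie between 7.43 and 7.64, while the fatty acid uptake list separates the 5 other RSG arrays from DMSO.

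The remaining 11 arrays fell into 2 sets that crossed the treatments. After the group means were removed, the first principal component held 50.1% of the remaining variance and the second 13.2%. DMSO replicates 1, 2 and 3 and RSG replicates 4, 5 and 6 lay on one side of the first component, and DMSO replicates 4, 5 and 6 and RSG replicates 2 and 3 on the other. RSG and DMSO arrays of the same set correlated at 0.991 to 0.995, and arrays of the same treatment but of different sets at 0.984 to 0.991. The labels do not name such sets, and the mean of the interferon-stimulated genes was 7.92 to 8.19 in the first and 8.29 to 8.42 in the second. Since each set held both treatments, the RSG effect could be read within each.

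Because of replicate 1, the comparison was made with all 59 arrays of the series and again with 54, which leave out replicate 1 and the 4 arrays of 12 h it resembled. Both fits used limma with the 10 groups of treatment and time and Benjamini-Hochberg adjustment over all 11515 genes, so all adjusted p-values below come from limma. A gene was called where its adjusted p was under 0.05.

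With all 59 arrays 10 genes were higher with RSG (0.0868% of those tested) and 1 was lower (0.00868%), and 618 genes had an unadjusted p under 0.05. With the 54 arrays 91 genes were higher (0.79%) and 41 lower (0.356%), and 796 had an unadjusted p under 0.05. All 11 genes of the first fit were also called in the second. Leaving out RSG replicate 1 alone gave 21 calls, 20 of them higher. The median difference over all genes was -0.01 in both fits.

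Of the 91 genes that were higher, 85 had all 5 RSG arrays above all 6 DMSO arrays, an arrangement found in 1.54% of all genes tested. Of the 41 that were lower, 33 had all 5 below all 6, against 1.07% of all genes. The rises were the larger changes, with a median of 0.73 and a maximum of 3.42, and 20 genes rose over 2-fold. The falls had a median of -0.52, and the fitted fall of 1, GPR82, exceeded 2-fold. In RSG replicate 1, 52 of the 91 genes lay below all DMSO arrays and 28 above them, and of the 41 genes 30 lay below and 11 above. Over all genes tested, 35.0% lay below all 11 other arrays of 8 h in replicate 1 and 28.9% above them. That condition is stricter than lying beyond the 6 DMSO arrays, for which the share over all genes is not given here. The counts and these shares are therefore not directly comparable.

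**Figure D2:**
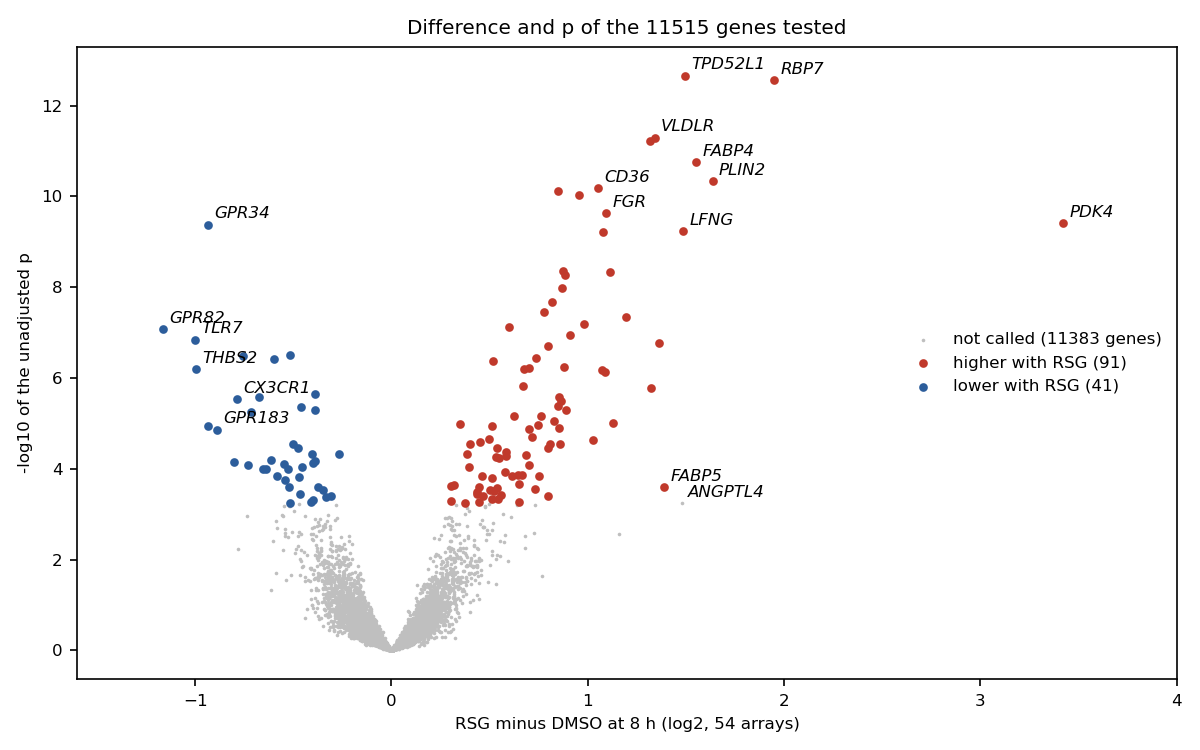
Difference at 8 h (horizontal axis, log2, RSG minus DMSO, 54 arrays) against -log10 of the unadjusted limma p (vertical axis) for the 11515 genes tested, with the 91 called higher in red and the 41 called lower in blue. PDK4 lies farthest to the right at 3.42, and GPR82 farthest to the left at a fitted -1.16.

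The 11 genes called with all arrays included the glycosyltransferase LFNG, which modifies Notch receptors. LFNG ran from 7.28 to 8.01 on the DMSO arrays (median 7.80) and was 9.22, 8.94, 9.31, 9.27 and 9.45 in RSG replicates 2 to 6, with 8.52 in replicate 1. No RSG array overlapped DMSO. The difference was 1.37 (SE 0.21, adjusted p = 0.000347) with 59 arrays and 1.49 (SE 0.19, adjusted p = 4.94e-07) with 54.

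RCAN1, an inhibitor of the phosphatase calcineurin, ran from 10.59 to 10.89 with DMSO (median 10.70) and was 11.06, 11.87, 12.01, 12.23, 12.07 and 12.10 in the 6 RSG replicates. It rose 1.15 (SE 0.20, adjusted p = 0.00129) with 59 arrays and 1.32 (SE 0.15, adjusted p = 1.74e-08) with 54. RDH10, which oxidises retinol to retinal, ran from 8.05 to 8.40 (median 8.22) with DMSO and was 8.71 in replicate 1, the lowest RSG array, against a median of 9.12 and a highest value of 9.29 in the other 5. For these genes, and for the p53 target PHLDA3, replicate 1 lay between the other RSG arrays and DMSO. SH3BGRL2 was called too, at 6.63 to 7.16 with DMSO (median 6.81) and 7.55, 7.67, 7.59, 7.37, 7.50 and 7.43 in the 6 RSG replicates (59 arrays: 0.63, SE 0.13, adjusted p = 0.0248). With 1 array of 8 h left out at a time, SH3BGRL2 stayed called in 5 of 12 fits and PHLDA3 in 3.

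FGR, a Src family tyrosine kinase of myeloid cells, behaved otherwise in replicate 1. DMSO arrays held 9.07 to 9.61 (median 9.33), RSG replicates 2 to 6 held 10.37, 10.22, 10.47, 10.49 and 10.58, and replicate 1 held 11.54. The rise was 1.28 (SE 0.22, adjusted p = 0.00129) with 59 arrays and 1.09 (SE 0.14, adjusted p = 2.73e-07) with 54. PDGFRL, ICAM2, PLAC8 and ITPR3 shared this arrangement, and so did GPR34 in the direction of its fall, 6 of the 11 genes in all. PDGFRL, ICAM2 and ITPR3 were no longer called once replicate 1 alone was left out, with adjusted p of 0.0548, 0.0548 and 0.0911. Their differences were the same with the 54 arrays, which also lack replicate 1. There they were called, with adjusted p of 1.19e-07, 3.85e-05 and 0.00242. These 2 fits differ only in the 4 arrays of 12 h, which enter through the shared estimate of spread.

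**Figure D3:**
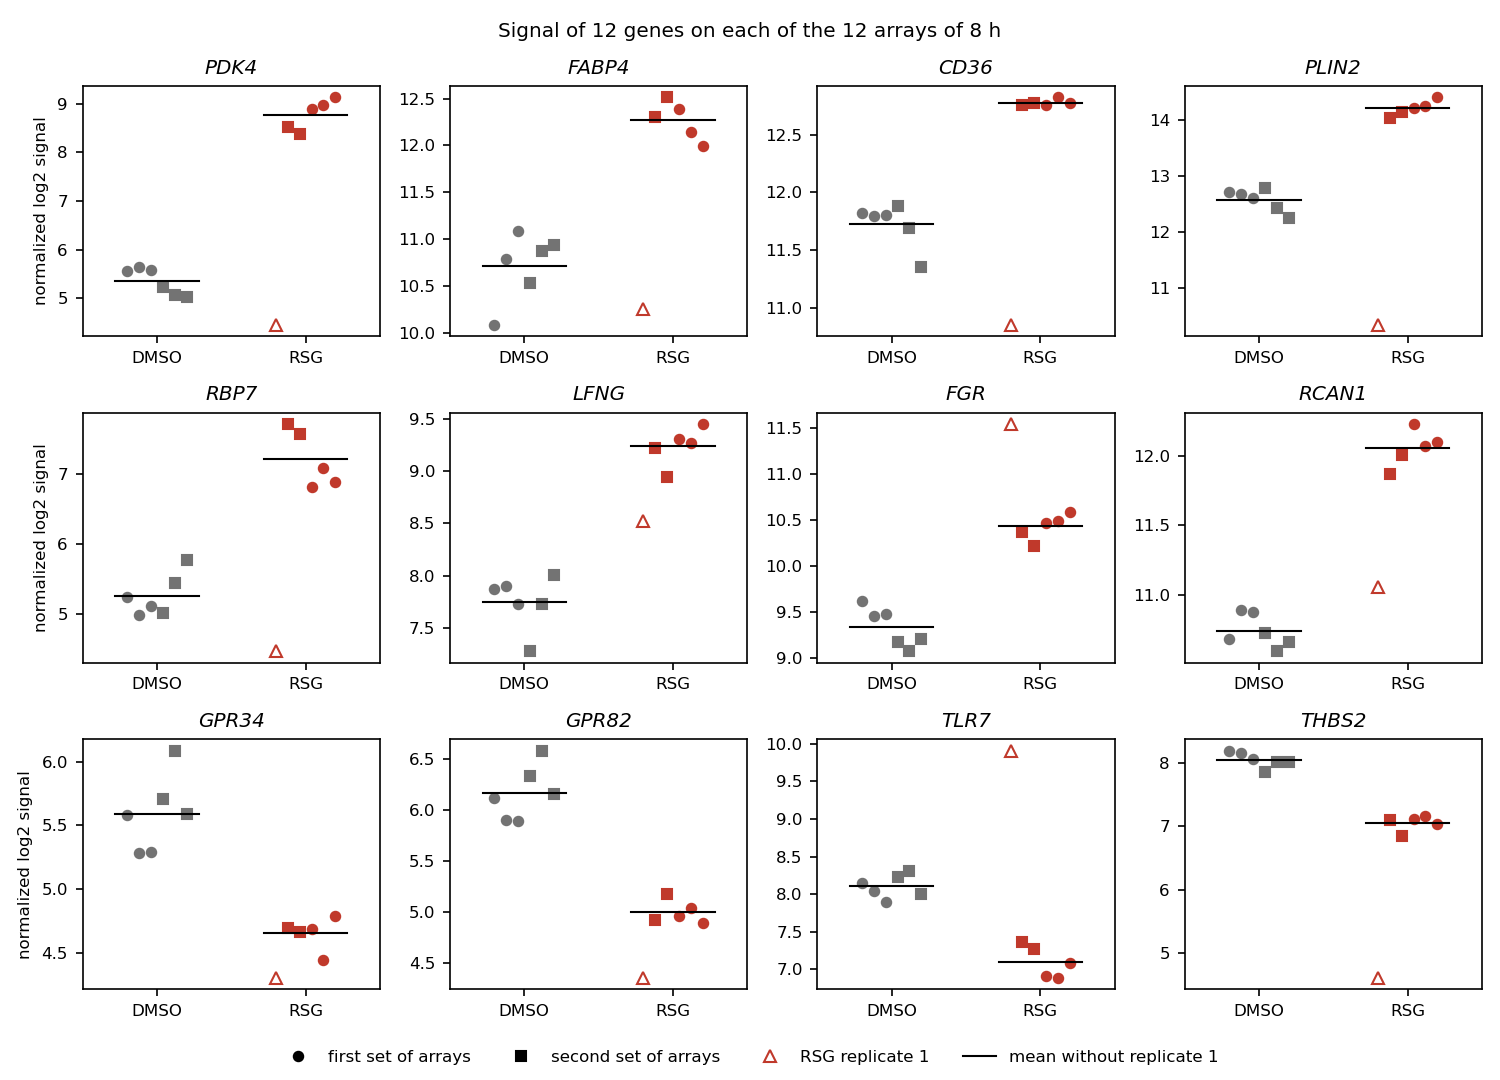
Normalised log2 signal (vertical axes, each with its own range) of 12 genes on the 12 arrays of 8 h, DMSO in grey and RSG in red, with circles and squares for the first and second set, an open triangle for RSG replicate 1 and a line at each mean without it. In all 12 genes RSG replicates 2 to 6 are clear of the 6 DMSO arrays, and in PDK4 replicate 1 lies below DMSO at 4.46.

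Neither the ligand's own receptor nor its partner was called, and their differences changed sign between the fits. PPARG ran from 11.07 to 11.16 with DMSO and was 11.23, 11.22, 11.19, 11.26 and 11.17 in RSG replicates 2 to 6, a difference of 0.09 (SE 0.08, adjusted p = 1.00) with 54 arrays and -0.19 (SE 0.35, adjusted p = 0.968) with 59. RXRA ran from 10.56 to 11.21 and from 10.91 to 11.25, and its difference was 0.13 (SE 0.12, adjusted p = 1.00) with 54 arrays and -0.18 (SE 0.26, adjusted p = 0.955) with 59. None of the 5 tested PPAR and RXR genes and none of 7 tested coregulators was called in either limma fit, and 0 and 2 of them had an unadjusted p under 0.05 with 54 arrays.

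PDK4 had the largest rise. It encodes the kinase that shuts off pyruvate dehydrogenase and so spares glucose while fatty acids are burned. Its signal was 5.03 to 5.64 with DMSO (median 5.39) and 8.51, 8.37, 8.89, 8.96 and 9.13 in RSG replicates 2 to 6, while replicate 1 had 4.46 and lay below every DMSO array. The difference was 3.42 (SE 0.44, adjusted p = 4.02e-07), a 10.7-fold rise, and 2.70 (SE 0.65, adjusted p = 0.092) with all 59 arrays. Over other processing settings of the 54 arrays the difference ran from 2.45 to 4.10 and PDK4 was called in each.

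The promoter of PDK4 is shown because this gene led the response. Promoter sequences were at hand for 69 of the 91 higher and 34 of the 41 lower genes, and the other called genes were not scanned. Among those scanned, only HAL, KLRC1 and ACP3, also shown, held a direct repeat like the one PPARG and RXR bind. Sequences are from RefSeq on build GRCh38.p14, from 250 bases before to 50 after the start site. Capitals mark 2 copies of AGGTCA in the same direction with 1 base between them, on either strand, with at most 2 mismatches over the 12 compared bases. KLRC1 had 2 such matches and PDK4 none. HAL (histidine ammonia-lyase, +0.69) and KLRC1 (a natural killer cell receptor, at least 1.27-fold, since no DMSO array detected it) were higher with RSG and ACP3 (an acid phosphatase, -0.50) lower.
PDK4: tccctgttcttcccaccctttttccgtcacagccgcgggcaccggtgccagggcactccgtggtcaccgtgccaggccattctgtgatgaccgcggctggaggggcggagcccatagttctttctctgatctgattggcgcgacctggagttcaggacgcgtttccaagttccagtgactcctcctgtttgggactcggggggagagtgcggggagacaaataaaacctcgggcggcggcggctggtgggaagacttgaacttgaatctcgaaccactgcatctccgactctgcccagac
HAL: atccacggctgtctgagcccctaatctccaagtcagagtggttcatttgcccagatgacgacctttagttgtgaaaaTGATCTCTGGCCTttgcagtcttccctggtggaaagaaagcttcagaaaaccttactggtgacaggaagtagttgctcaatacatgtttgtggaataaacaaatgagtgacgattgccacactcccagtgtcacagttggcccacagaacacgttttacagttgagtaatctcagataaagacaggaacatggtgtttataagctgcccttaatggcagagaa
KLRC1: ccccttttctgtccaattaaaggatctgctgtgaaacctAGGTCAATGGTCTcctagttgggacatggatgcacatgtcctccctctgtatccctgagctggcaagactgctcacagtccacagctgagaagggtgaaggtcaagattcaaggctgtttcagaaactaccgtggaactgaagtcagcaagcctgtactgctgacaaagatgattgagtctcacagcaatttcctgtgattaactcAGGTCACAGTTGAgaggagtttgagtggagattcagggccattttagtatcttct
ACP3: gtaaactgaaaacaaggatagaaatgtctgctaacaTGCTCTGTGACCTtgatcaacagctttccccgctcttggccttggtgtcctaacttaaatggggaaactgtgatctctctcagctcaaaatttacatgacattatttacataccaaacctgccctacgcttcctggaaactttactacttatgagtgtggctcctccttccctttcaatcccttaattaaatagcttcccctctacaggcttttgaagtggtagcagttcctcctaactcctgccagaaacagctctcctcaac
They lie on the minus strand at chr7:95596467-95596766 (PDK4), chr12:95996295-95996594 (HAL) and chr12:10454636-10454935 (KLRC1), and on the plus strand at chr3:132317157-132317456 (ACP3).

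Such promoter repeats were present in 2 of the 69 higher genes with a promoter sequence (2.9%), 1 of 34 lower genes (2.94%), 207 of 9481 tested genes (2.18%) and 2.99% of all promoters in the table. A single exact AGGTCA on either strand was present in 5.8% of the higher genes, 5.88% of the lower and 10.1% of the tested genes. The letters GAGGAA, the core that PU.1 binds, were present in 33.3%, 29.4% and 27.8%. These matches describe 300 bases only.

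Of 15 tested genes that bring fatty acids into the cell or bind them there, 5 were higher and 0 lower with 54 arrays, and the median difference was 0.25. The other 10 were not called, 1 of them with an unadjusted p under 0.05 in the lower direction. FABP4, a fatty acid-binding protein of fat cells and macrophages, ran from 10.09 to 11.08 with DMSO (median 10.83) and was 12.31, 12.51, 12.39, 12.14 and 12.00 in RSG replicates 2 to 6. It rose 1.55 (SE 0.18, adjusted p = 4.04e-08), and replicate 1, at 10.25, lay inside the DMSO range.

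CD36, a scavenger receptor and fatty acid translocase, had nearly even values with RSG. The 5 RSG replicates held 12.76, 12.78, 12.76, 12.83 and 12.77, and the DMSO arrays 11.35 to 11.88 (median 11.80). It rose 1.05 (SE 0.13, adjusted p = 1.08e-07). VLDLR, which takes up triglyceride-rich lipoproteins, went from 6.60 to 7.12 with DMSO (median 6.89) to 8.13, 8.05, 8.35, 8.23 and 8.33, a rise of 1.34 (SE 0.15, adjusted p = 1.74e-08).

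FABP5 and ACSL1 were less secure. FABP5, the epidermal-type fatty acid-binding protein, was spread from 5.84 to 7.52 with DMSO (median 6.35) and held 7.98, 8.76, 7.65, 6.82 and 7.91 with RSG, so that 1 RSG array lay inside the DMSO range. Its difference was 1.39 (SE 0.35, adjusted p = 0.0268), and it kept its call in 5 of 11 fits that each left out 1 array of 8 h. ACSL1, which couples fatty acids to coenzyme A, rose 0.65 (SE 0.16, adjusted p = 0.0241) and kept its call in 6 of 11, and in replicate 1 it had 10.58, above the 8.90 to 9.54 of the other RSG arrays.

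ANGPTL4, a secreted inhibitor of lipoprotein lipase and a known PPAR target, fell just outside the threshold. It ran from 4.90 to 6.16 with DMSO (median 5.75) and was 7.44, 7.24, 6.92, 7.03 and 7.08 with RSG, with 6.81 in replicate 1. All 6 RSG arrays lay above all 6 DMSO arrays. The difference was 1.48 (SE 0.40, adjusted p = 0.0503) with 54 arrays and 1.42 (SE 0.40, adjusted p = 0.192) with 59. The miss depended on processing. ANGPTL4 stayed uncalled in 5 of 10 other settings of the 54 arrays and was called in the rest, with differences from 0.62 to 1.89. LPL itself differed by 0.06 with 54 arrays, which leave out its low signal of 8.78 in replicate 1.

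Storage genes were represented by PLIN2 alone. PLIN2 coats lipid droplets, and it ran from 12.24 to 12.78 with DMSO (median 12.64) and was 14.03, 14.14, 14.22, 14.24 and 14.41 with RSG, with 10.33 in replicate 1. It rose 1.64 (SE 0.20, adjusted p = 8.76e-08). The other 16 tested genes for droplet proteins and lipases were not called, and the median of the list was -0.06. GPAT3, which starts triglyceride synthesis from glycerol-3-phosphate, was outside the list and rose 0.86 (SE 0.19, adjusted p = 0.00466). LIPG, endothelial lipase, rose 0.70 (SE 0.16, adjusted p = 0.0107).

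Other oxidation genes moved less than PDK4. Of 35 tested genes on the list, which holds PDK4, 3 were higher and 1 lower with 54 arrays, with a median of 0.07, and with 59 arrays none was called, with 3 at an unadjusted p under 0.05. SLC25A20, the carrier that takes acylcarnitines into mitochondria, ran from 7.78 to 8.44 with DMSO (median 8.14) and was 8.94, 9.09, 8.63, 8.49 and 8.85 with RSG, a rise of 0.66 (SE 0.16, adjusted p = 0.0162). ECH1, an auxiliary enzyme for unsaturated fatty acids, rose 0.40 (SE 0.09, adjusted p = 0.00466).

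ACAD11, an acyl-CoA dehydrogenase of long chains, went the other way. It ran from 9.43 to 9.99 with DMSO (median 9.78) and was 9.23, 9.12, 8.86, 8.86 and 8.90 with RSG, a fall of 0.76 on the log2 scale (SE 0.13, adjusted p = 0.000123). CPT1A, the entry enzyme of the pathway and a known PPAR target, differed by 0.28 and was not called (adjusted p = 0.612). None of 33 tested genes of oxidative phosphorylation was called, none had an unadjusted p under 0.05 with 54 arrays, and their median was 0.01.

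Retinoid genes included the second largest rise. RBP7, a cellular retinol-binding protein, ran from 4.99 to 5.77 with DMSO (median 5.18), where 3 of 6 arrays detected it, and was 7.72, 7.57, 6.81, 7.09 and 6.88 with RSG. It rose 1.95 (SE 0.20, adjusted p = 1.59e-09). Of 16 tested retinoid genes 4 were higher and 0 lower, with a median of 0.04. The others were RDH10 at 0.91 (SE 0.15, adjusted p = 5.09e-05), ALDH1A2, which makes retinoic acid, at 0.54 (SE 0.14, adjusted p = 0.0276), and the retinoic acid receptor RARA at 0.58 (SE 0.14, adjusted p = 0.0146). With the mean of its probes RARA was not called (0.21, adjusted p = 0.701).

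Those 4 genes cover binding of retinol, both oxidation steps to retinoic acid, and a receptor for it. ALDH1A2 held 7.58 to 8.04 with DMSO (median 7.86) and 8.76, 8.54, 8.17, 8.23 and 8.14 with RSG. When each array of 8 h was left out in turn, it passed in 6 of the 11 fits, RARA in 9, and RBP7 and RDH10 in all 11. The retinoic acid-degrading CYP26A1 and CYP26B1 differed by 0.05 and -0.09.

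Cholesterol handling yielded 1 call of 16 tested genes. LPCAT3, which loads phospholipids with polyunsaturated chains and is a target of the oxysterol receptor LXR, had a lowest value of 6.82 and a median of 6.86 with DMSO and was 7.81, 7.71, 7.57, 7.72 and 7.59 with RSG, with no overlap. It rose 0.80 (SE 0.13, adjusted p = 7.98e-05). NR1H3, which encodes LXR alpha, differed by 0.49 (SE 0.15) and was not called (adjusted p = 0.13), and the efflux pumps ABCA1 and ABCG1 had differences of -0.40 (adjusted p = 0.918) and 0.04 (adjusted p = 1.00). None of 27 tested genes of sterol and fatty acid synthesis was called, with 4 at an unadjusted p under 0.05.

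Of 30 tested G protein-coupled receptors for lipids and metabolites 1 was higher and 4 lower with 54 arrays, with a median of -0.09. GPR34, a receptor for lysophosphatidylserine, ran from 5.28 to 6.09 with DMSO (median 5.59), where all 6 arrays detected it. It was 4.70, 4.67, 4.69, 4.44 and 4.79 in RSG replicates 2 to 6 and 4.31 in replicate 1, and no RSG array detected it. The fall was therefore a bound, at least 1.38-fold without replicate 1 and at least 1.35-fold with it (fitted difference -0.93, SE 0.12, adjusted p = 4.02e-07 with 54 arrays, and adjusted p = 0.00314 with 59).

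GPR82, an orphan receptor, ran from 5.89 to 6.58 with DMSO (median 6.14) and was 4.93, 5.18, 4.96, 5.04 and 4.90 with RSG, and 1 of these 5 arrays detected it. It fell (fitted difference -1.16, SE 0.19, adjusted p = 4.02e-05), but with a signal this near background the difference ran from -1.79 to -0.60 over other processing settings. GPR34 and GPR82 lie close together on chromosome X of GRCh38.p14, at 41688973 to 41697275 and 41724181 to 41730130. GPR18, a lipid-sensing receptor, and GPR183, which binds oxysterols, also fell and lie close together on chromosome 13, at 99254739 to 99258379 and 99294539 to 99307399.

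GPR183 ran from 8.38 to 9.33 with DMSO (median 8.87) and was 8.21, 8.47, 7.74, 7.82 and 7.58 with RSG, a fall of 0.89 on the log2 scale (SE 0.18, adjusted p = 0.00254). The second of these RSG values lay inside the DMSO range. Replicate 1 held 11.29, and with 59 arrays the difference was -0.34 (SE 0.44, adjusted p = 0.955). GPR18 fell by 0.80 on the log2 scale (SE 0.19, adjusted p = 0.00988), from 7.34 to 8.01 with DMSO (median 7.54) to 7.24, 7.04, 6.56, 6.48 and 6.59.

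CX3CR1, the fractalkine receptor of monocytes, was the only called gene of 12 tested chemokine receptors. It ran from 12.24 to 12.73 with DMSO (median 12.57) and was 11.66, 11.49, 11.77, 11.83 and 11.88 with RSG, a fall of 0.79 on the log2 scale (SE 0.15, adjusted p = 0.000757). In replicate 1 it was 8.88. NMUR1, a neuropeptide receptor and the 1 higher gene among the G protein-coupled receptors counted above, was not detected on any DMSO array and was detected in all of RSG replicates 2 to 6, at 5.98, 5.76, 6.30, 6.28 and 6.18. It was at least 2.00-fold higher without replicate 1 (fitted difference 1.32, SE 0.24, adjusted p = 0.000468 with 54 arrays). In replicate 1 NMUR1 had 4.30, below all DMSO arrays, and with 59 arrays the fitted difference was 1.02 (SE 0.30, adjusted p = 0.279).

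Toll-like receptors went in both directions. TLR7 and TLR8, which sense RNA in endosomes and lie close together on chromosome X (12867072 to 12890361 and 12906620 to 12923169), were lower with RSG, and TLR4, which senses bacterial lipopolysaccharide at the surface, was higher. TLR7 ran from 7.89 to 8.31 with DMSO (median 8.10) and was 7.36, 7.27, 6.92, 6.89 and 7.08 with RSG, a fall of 1.00 on the log2 scale (SE 0.16, adjusted p = 6.28e-05). TLR8 fell by 0.58 on the log2 scale (SE 0.14, adjusted p = 0.0169), from 6.81 to 7.32 (median 7.18) to 6.45, 6.57, 6.53, 6.67 and 6.57.

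TLR4 ran from 7.41 to 7.84 with DMSO (median 7.79) and was 8.57, 8.48, 8.45, 8.57 and 8.66 with RSG, a rise of 0.81 (SE 0.18, adjusted p = 0.00466). These 3 were the only calls of 19 tested receptors and adaptors. In replicate 1 TLR7 and TLR8 were above all other arrays of 8 h, at 9.91 and 9.61, and with 59 arrays their differences were -0.53 (SE 0.33, adjusted p = 0.934) and -0.07 (SE 0.35, adjusted p = 0.991). STING1, the adaptor of cytosolic DNA sensing, fell by 0.39 on the log2 scale (SE 0.07, adjusted p = 0.000632) and MARCHF1, a ubiquitin ligase that removes MHC class II, by 0.71 (SE 0.14, adjusted p = 0.00123).

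On the list for calcineurin and calcium release 2 genes were higher and 1 lower. Beside RCAN1, ITPR3, a calcium release channel of the endoplasmic reticulum, ran from 6.98 to 7.53 with DMSO (median 7.19) and was 7.84, 7.78, 8.10, 8.45 and 8.12 with RSG, a rise of 0.86 (SE 0.18, adjusted p = 0.00242). NFATC1, the transcription factor that calcineurin activates, ran from 8.52 to 9.09 (median 8.90) and was 8.58, 8.32, 8.05, 7.94 and 7.67, a fall of 0.73 on the log2 scale (SE 0.17, adjusted p = 0.0107), which was not called with the mean of its probes (-0.40, adjusted p = 0.528). The remaining 19 of 22 tested genes of this list were not called.

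Outside the lists, PDE1B, a phosphodiesterase that calcium and calmodulin activate, rose 1.07 (SE 0.19, adjusted p = 0.000197), and ADCY1, an adenylate cyclase stimulated in the same way, rose 0.89 (SE 0.17, adjusted p = 0.00119). PDE1B held 6.39 to 7.23 with DMSO (median 6.82) and 7.59, 7.74, 7.79, 8.14 and 8.16 with RSG. ADCY1 held 6.40 to 7.05 (median 6.79) and 7.51, 7.26, 7.79, 7.76 and 7.90. PDE9A, which degrades cyclic GMP, rose 0.70 (SE 0.14, adjusted p = 0.00248).

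Among transcription factors KLF4, a zinc finger protein of monocyte differentiation, was the only called gene of 24 tested immediate early factors. It ran from 8.36 to 9.28 with DMSO (median 9.16) and was 10.06, 9.73, 10.26, 9.98 and 10.51 with RSG, a rise of 1.09 (SE 0.19, adjusted p = 0.000215), with 5.33 in replicate 1. Of that list 7 genes had an unadjusted p under 0.05, all higher, and its median was 0.12. RUNX3 fell by 0.37 on the log2 scale (SE 0.10, adjusted p = 0.0268), a call lost in 3 of 11 other settings (-0.21, adjusted p = 0.793 with the mean of its probes), and OLIG2 by 0.68 (SE 0.13, adjusted p = 0.000689). SPI1, which encodes PU.1, ranged from 10.49 to 10.79 over the 11 arrays.

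Of 24 tested genes for matrix proteins, proteases and inhibitors, COL4A1 was higher and THBS2 lower with 54 arrays. CAV1, the coat protein of caveolae and outside that list, ran from 5.82 to 6.27 with DMSO (median 6.01) and was 7.29, 6.79, 7.01, 7.03 and 7.32 with RSG, a rise of 1.08 (SE 0.14, adjusted p = 4.94e-07). TPD52L1, a vesicle-trafficking protein of the tumour protein D52 family, ran from 5.94 to 6.45 (median 6.19) and was 7.51, 7.50, 7.77, 7.63 and 8.02, a rise of 1.49 (SE 0.15, adjusted p = 1.59e-09). The matrix protein THBS2 fell by 0.99 on the log2 scale (SE 0.17, adjusted p = 0.000197), from 7.85 to 8.19 (median 8.04) to 7.10, 6.85, 7.11, 7.16 and 7.04.

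ADAM19, a membrane-bound metalloprotease, fell by 0.94 on the log2 scale (SE 0.19, adjusted p = 0.00222). Its DMSO arrays held 8.10 to 8.50 (median 8.24) and its RSG arrays 7.39, 7.23, 7.41, 7.29 and 7.25, but replicate 1 held 11.47. COL4A1, a basement membrane collagen, rose 0.53 (SE 0.12, adjusted p = 0.00788). Among genes with very low signals KLRC1, of which near-identical family members exist, and FHOD3, an actin-nucleating formin, were detected on no DMSO array and on all of RSG replicates 2 to 6, and they were at least 1.27-fold and 1.39-fold higher.

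Further large changes fell outside the lists. TRNP1, a nuclear protein known from brain development, ran from 7.12 to 7.69 with DMSO and from 8.35 to 8.76 in RSG replicates 2 to 6, a rise of 1.19 (SE 0.19, adjusted p = 2.52e-05), with 4.77 in replicate 1. LRATD2 rose 1.12 (SE 0.16, adjusted p = 3.39e-06), and SLCO2B1, an organic anion transporter, 0.87 (SE 0.12, adjusted p = 3.39e-06). KCNE1, a potassium channel subunit, rose 1.03 (SE 0.22, adjusted p = 0.00414). These genes had all 5 RSG arrays above all DMSO arrays.

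Among the further falls WNT5B, a secreted Wnt ligand, ran from 6.82 to 7.20 with DMSO and from 6.15 to 6.61 with RSG and fell by 0.61 on the log2 scale (SE 0.14, adjusted p = 0.00905). VIPR1, a receptor for vasoactive intestinal peptide, fell by 0.55 on the log2 scale (SE 0.13, adjusted p = 0.0106), and the homeobox gene CUX2 by 0.65 (SE 0.15, adjusted p = 0.0127). ADGRE5, an adhesion receptor of leukocytes also known as CD97, fell by 0.54 on the log2 scale (SE 0.13, adjusted p = 0.0197). MYBPH fell by 0.64 on the log2 scale (SE 0.15, adjusted p = 0.0127), though 2 of its 5 RSG arrays lay inside the DMSO range.

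No inflammatory gene list held a call at 8 h. None of 22 tested genes for NF-kB and inflammatory cytokines, 15 inflammatory chemokines, 38 interferon-stimulated genes and 14 mature dendritic cell markers was called in either limma fit, and 4, 2, 3 and 1 of them had an unadjusted p under 0.05 with 54 arrays. Their medians were 0.00, -0.02, -0.02 and -0.03 with 54 arrays and 0.59, 0.88, 0.66 and 0.76 with 59. The levels of the same lists in replicate 1 are given above, and the medians differ between the fits only through that array. Over all 11515 genes, 0.79% were called higher and 0.356% lower with 54 arrays, and 796 had an unadjusted p under 0.05. At that rate lists of this size hold few calls, here and below.

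Several other lists held no call. Of 39 tested genes for the G1/S transition and DNA replication none was called, although 7 had an unadjusted p under 0.05, all higher, and the median was 0.15. None of 18 heat shock chaperones was called, with 0 at an unadjusted p under 0.05. Of 25 tested genes for the NRF2 response and glutathione 2 were higher, GPX4, which reduces lipid peroxides, at 0.32 (SE 0.08, adjusted p = 0.0246) and MGST1 at 0.45 (SE 0.10, adjusted p = 0.00449). PFKP, a phosphofructokinase, was the only called gene of 32 for glycolysis and hypoxia and fell by 0.52 on the log2 scale (SE 0.09, adjusted p = 0.00012).

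The effect at 8 h was set against those at 3 h and 12 h, each from 6 RSG and 6 DMSO arrays before exclusions. With 54 arrays 5 genes differed between 8 h and 3 h (0.0434% of those tested), and 333 had an unadjusted p under 0.05. RBP7 differed by 0.28 at 3 h (SE 0.19) and 1.95 at 8 h, and the difference of 1.67 had an adjusted p of 0.00106. FABP4 went from 0.17 (SE 0.17) to 1.55, with a difference of 1.38 (SE 0.25, adjusted p = 0.0041). GPR34 went from 0.07 (SE 0.12) to -0.93, with a difference of -1.01 (SE 0.17, adjusted p = 0.00106).

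TPD52L1 and FGR completed the 5, with differences of 1.10 (SE 0.21, adjusted p = 0.00863) and 0.92 (SE 0.19, adjusted p = 0.0367). With all 59 arrays none of the 11515 genes passed limma for this difference, and 207 had an unadjusted p under 0.05. PDK4 differed by 2.64 at 1.5 h (SE 0.44, adjusted p = 0.00133) and by 1.71 at 3 h (SE 0.42, adjusted p = 0.288). NMUR1 differed by 1.02 at 3 h (SE 0.23, adjusted p = 0.168), whereas GPR82 and TLR7 were at -0.24 (SE 0.18) and -0.27 (SE 0.16).

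Between 8 h and 12 h no difference passed limma, with 262 genes at an unadjusted p under 0.05 with 54 arrays and 113 with 59. The smallest p-values belonged to FFAR2, a receptor for short-chain fatty acids, which was 0.50 higher at 8 h and 1.26 higher at 12 h, and to CEP43, PYROXD2, E2F8 and THAP4, each with an adjusted p of 1.00. All 91 higher genes had a positive and all 41 lower genes a negative difference at 12 h, with medians of 0.70 and -0.50. The share of all genes with the same sign at both times is not given here. Of the 91 and the 41 genes, 66 and 24 were also called at 12 h, where 134 of all 11515 genes were higher and 76 lower with 54 arrays. At 3 h the medians of the 91 and the 41 genes were 0.25 and -0.07.

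**Figure D4:**
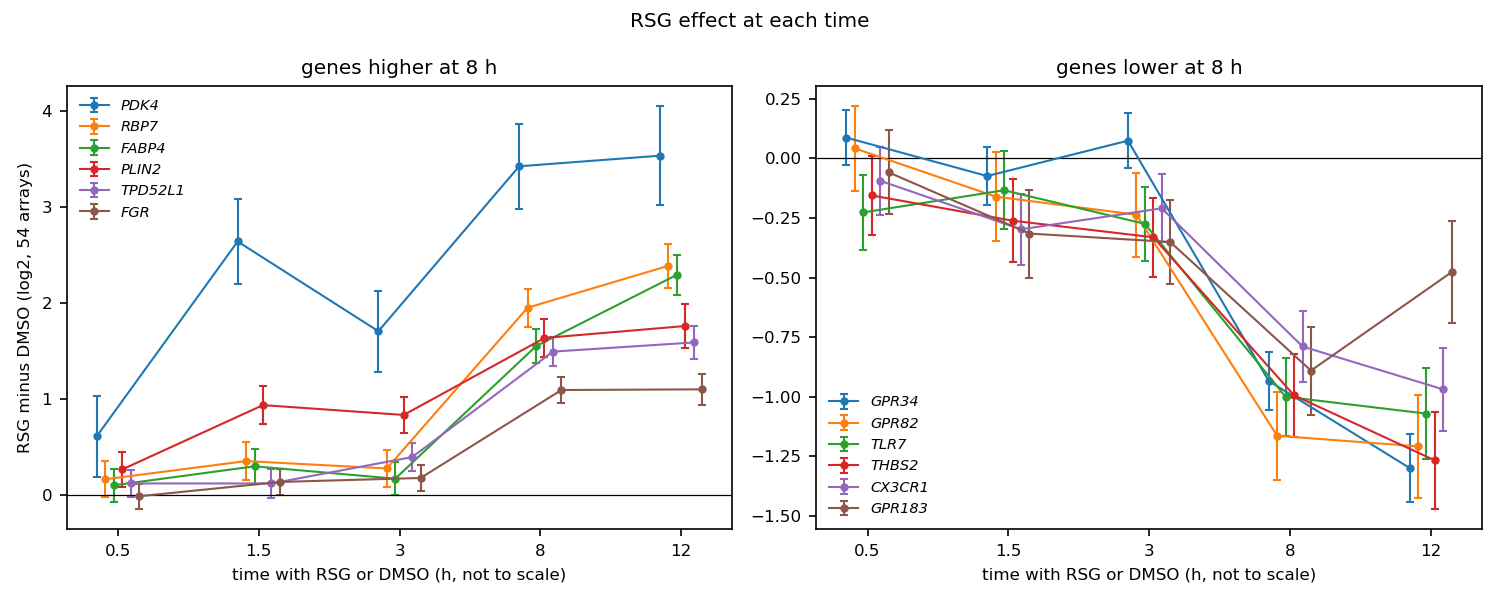
RSG minus DMSO (vertical axes, log2, 54 arrays) at 0.5, 1.5, 3, 8 and 12 h for 6 genes that were higher and 6 that were lower at 8 h, with bars of 1 SE. RBP7, FABP4, TPD52L1 and FGR lie at 0.40 or below up to 3 h and at 1.09 or above at 8 h, and GPR34 moves from 0.07 at 3 h to -0.93 at 8 h.

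Within the 2 sets of arrays the RSG effect could be read from arrays that resembled each other. All 91 higher genes were higher and all 41 lower genes lower in each set, which follows in part from the call over both. PDK4 rose 3.40 in the first set and 3.34 in the second, PLIN2 1.63 and 1.60, VLDLR 1.32 and 1.32, and SOWAHC, an ankyrin repeat protein, 1.35 and 1.35. RBP7 rose 1.81 and 2.23, and GPR34 fell by 0.75 and 1.11 on the log2 scale.

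NR1H3, which was not called, is given by set. In the first set its DMSO replicates 1, 2 and 3 held 7.96, 7.79 and 7.80 and RSG replicates 4, 5 and 6 held 8.39, 8.55 and 8.26. In the second set DMSO replicates 4, 5 and 6 held 8.32, 8.29 and 8.45 and RSG replicates 2 and 3 held 8.84 and 8.91. RSG lay above DMSO within each set, by 0.55 and 0.52, while RSG arrays of the first set overlapped DMSO arrays of the second. NR1H3 and this reading of it were chosen after the values were seen, and no test is given for it here.

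**Figure D5:**
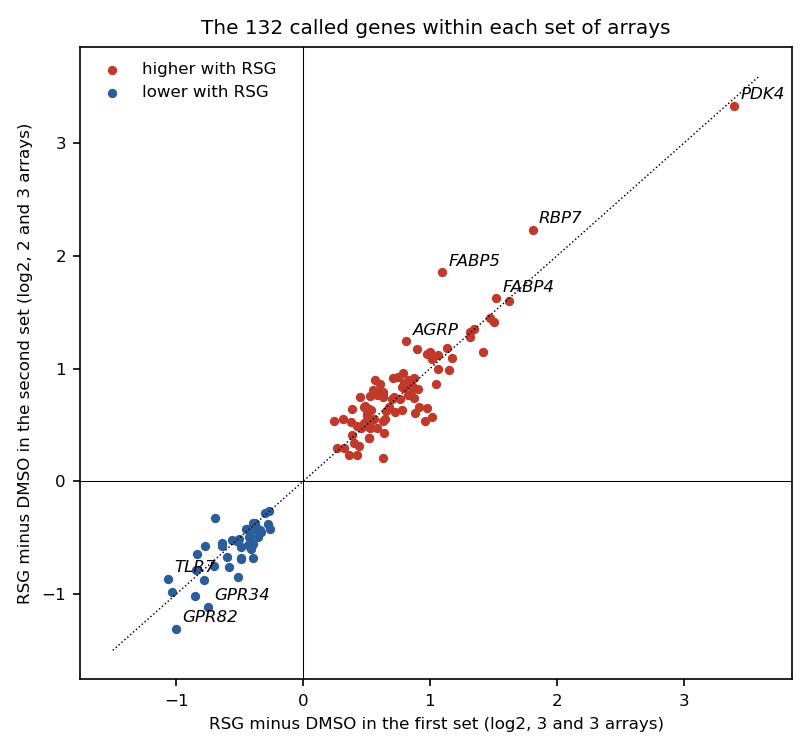
RSG minus DMSO (log2) within the first set (horizontal axis, 3 RSG and 3 DMSO arrays) and the second set (vertical axis, 2 RSG and 3 DMSO arrays) for the 132 called genes, higher in red and lower in blue, with a dotted line of equal differences. PDK4 lies near that line at 3.40 and 3.34, and FABP5 above it at 1.10 and 1.86.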

How the data were processed

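Per the file headers, the authors deposited mean bead intensity and a detection p-value for each probe and array, not normalised, and a second table of intensity values that BeadStudio average normalization had rescaled. Probes were named through GEO's platform annotation, with 21834 of 24526 shared probes having 1 symbol, 0 several and 2692 none. The deposited intensities were corrected with normexp on negative-control spread inferred from the deposited detection p-values, quantile-normalised and log2-transformed (neqc, offset 16, limma 3.58.1, R 4.3.3). The filter asked for a detection p below 0.01 on 5 or more arrays and passed 15336 probes, 13877 of them named, and the brightest probe stood for its gene. Array numbers limit the precision of each value. limma was fitted to 10 groups on 59 and on 54 arrays, with differences between times as contrasts. Where a group detected a probe on none of its arrays, the bound set the bright group's mean against the dim group's mean of, per array, the lowest detected signal or the probe's own, whichever was higher. The 54-array fit was tested on data simulated with independent noise, without sets of arrays or an array that stood apart. The 59-array fit was not tested in this way.

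Gene lists, named genes and tests were chosen with earlier results of these data known. Named genes were the calls of the 59-array fit, PPARG, RXRA, PDK4 and ANGPTL4, the 20 largest rises and the 20 largest falls of the 54-array fit detected on 50% or more of the higher group's arrays, up to 4 called and 2 uncalled genes per list, the 5 smallest p-values of each difference between times, and the 10 highest and 10 lowest genes of RSG replicate 1. CPT1A, ABCA1, ABCG1, the CYP26 genes and further called genes were added after their values were seen. Same-numbered RSG and DMSO arrays did not deviate together (mean residual correlation -0.44 over 5 pairs), and numbers were not taken as pairs. Each of these 5 pairs spans the 2 sets of arrays, so the check cannot tell whether numbers mark pairs. The share of called genes near binding sites of PPARG was planned but is not reported, since it rests on a gene list of the published study and not on these files.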

Additional observations from a re-analysis of the deposited data

Results flagged for a closer look

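Values that stood apart from the rest of their group were looked for in 91 groups of values by Dixon's test, which chance alone passes in about 1 of 20 groups. DMSO groups held 6 arrays. RSG groups held 6 for the 11 genes called with all arrays and 5, without replicate 1, for the other genes. Replicate 1 could therefore stand apart here only in those 11 genes and in its correlation. RSG replicate 1 stood apart in its median correlation with the other arrays of 8 h, 0.891 against 0.988 to 0.991 for the other RSG arrays. It also stood apart in RCAN1 (11.06, others 11.87 to 12.23), FGR (11.54, others 10.22 to 10.58), PDGFRL (12.19, others 9.86 to 10.03), ICAM2 (9.85, others 8.88 to 9.22) and PLAC8 (11.30, others 10.41 to 10.72). Among DMSO arrays, replicate 6 was low in CD36 (11.35, others 11.69 to 11.88) and in KLF4 (8.36, others 8.94 to 9.28). DMSO replicate 3 was low in TLR4 (7.41, others 7.76 to 7.84), and DMSO replicate 4 in PLAC8 (9.70, others 10.08 to 10.27).

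For 5 genes the RSG effect differed between 8 h and 3 h by limma on 54 arrays. The difference was 1.67 for RBP7, 1.38 for FABP4, 1.10 for TPD52L1, 0.92 for FGR and -1.01 for GPR34, with adjusted p from 0.00106 to 0.0367. With all 59 arrays the adjusted p of each was 1.00.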

How the results depend on the processing

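Array weights gave 231 in place of 11 with 59 arrays and 321 in place of 132 with 54. Leaving out 1 array of 8 h at a time gave 5 to 21 calls with 59 arrays, the lowest without DMSO replicate 4 (5) and DMSO replicate 3 (7) and the highest without RSG replicate 1 (21), and 96 to 129 with 54. A fold of at least 1.5 left 76 of the 132. The 2 sets as a block on the 11 arrays of 8 h alone, chosen after seeing the data, gave 412 calls, 129 of them among the 132, and the same 11 arrays without the block gave 169. These p-values are too small to an unknown degree, since the sets were read from the same values. For 8 h against 3 h with 54 arrays, 5 became 8 without background correction, 1 with probes detected on all arrays (7842 genes tested) and 15 with array weights, and with 59 arrays 0 became 4 with array weights. For 8 h against 12 h with 54 arrays, 0 became 3 with the authors' scaled table and 2 with average normalization. The cause was not tested.

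With the replicate number as a replicate block, 124 genes were called with 54 arrays (120 of the 132) and 11 with 59, and 5 for 8 h against 3 h. Same-numbered arrays deviated in opposite directions on average (correlation -0.44 over 5 pairs, against 0.09 over 25 pairs of different numbers). Each of the 5 pairs spans the 2 sets of arrays, so this correlation cannot show whether equal numbers share more than the number. Of the 132 called genes 81 kept their call in all 11 fits without 1 array, and 89 kept it under every other setting for which a value could be computed, apart from the 2-set block. Within each fit no called gene changed sign under these settings. Between the fits genes that were not called could change sign. PPARG, RXRA, ABCA1 and PYROXD2 (8 h minus 12 h, 0.53 with 54 arrays and -0.44 with 59) were among them. Array signals near background limit genes such as GPR34, NMUR1 and KLRC1 to bounds.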

Other observations

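Several genes that did not pass limma had all or most RSG arrays above DMSO and like differences within both sets of arrays. They were chosen after their values were seen, and no test is given. Over all 11515 genes, 177 (1.54%) had all 5 RSG arrays above all DMSO arrays, and 85 of these were called higher, so others share the arrangement. PLTP, the phospholipid transfer protein and a target of LXR, ran from 7.21 to 7.59 with DMSO and from 7.67 to 8.14 in RSG replicates 2 to 6, with differences of 0.52 in the first set and 0.48 in the second (54 arrays: 0.48, SE 0.16, adjusted p = 0.182). FOS, an immediate early transcription factor, differed by 0.50 in each set (54 arrays: adjusted p = 0.299), and its 5 RSG arrays lay above all DMSO arrays. CCL20, a chemokine, differed by 0.54 and 0.56 (adjusted p = 0.188), with 4 of 5 RSG arrays above all DMSO arrays.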
